A study of Homo sapiens with 5 samples.

Results

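WNT5A and WNT5B are secreted, lipid-modified ligands that act mostly outside the beta-catenin pathway: through Frizzled receptors such as FZD2 and FZD7 and the tyrosine kinase-like co-receptors ROR1, ROR2 and RYK they signal to the cytoskeleton, to planar cell polarity and to intracellular calcium. DKK1 blocks the LRP5 and LRP6 co-receptors that beta-catenin signalling needs, SFRP1 binds WNT ligands outside the cell, and DKK3 is a secreted relative of DKK1 whose action on WNT signalling differs between cell types. In carcinoma cells WNT5 ligands and ROR receptors are known for effects on motility, and SFRP1 is known as a gene that is often silenced by promoter methylation in renal cell carcinoma. These 10 genes were read in 3 human renal cell carcinoma lines on 5 Affymetrix expression arrays.

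The groups were SN12C, the parental line, called non-metastatic in the labels (2 biological replicates), LM1, a lung-metastatic line of generation 1 (1 array), and LM2, a lung-metastatic line of generation 2 (2 biological replicates). No treatment or genetic change was labelled in any line, and the sources used here do not say how LM1 and LM2 were derived or whether either is a clone. The series was made to find expression differences that accompany rising metastatic activity. The 10 genes were chosen by symbol with earlier results of these arrays known, among them the difference of WNT5B between LM2 and SN12C, so every difference between lines is given as a description, with no p of its own. The platform table assigned 27 of the 54675 probe sets to the 10 genes, which are 10 of 19775 genes with a probe set. Of the 10, 8 passed a filter that asked for at least 2 arrays at or above 6.03 log2 units, the 40th percentile of all values. WNT5A and ROR2 did not pass and are described from their values only.

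Values are log2 signals, on which 1 unit is a doubling, and for each gene the probe set with the highest mean is described first. Signals of different probe sets are not on a common scale, so levels are compared between lines and never between genes. Each gene difference carries the standard error (SE) of a limma fit over the 15024 genes tested, and group values are means ± SD with n = 2 for SN12C and for LM2. LM1 has no replicate.

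The arrays differed in ways that touch the results below. Control probe sets at the 3′ end of beta-actin minus those at its 5′ end gave 3.43 log2 units for LM1, against 0.07 to 0.47 for the other lines, and for GAPDH 2.09 for LM1, against -0.07 to 0.14, values that rise as RNA is degraded or copied incompletely. Over the tested genes the median gap between replicates was 0.07 log2 units in LM2 and 0.28 in SN12C. SN12C replicate 2 was more like the LM2 arrays (Pearson r = 0.98 and 0.983) than like SN12C replicate 1 (0.971). SN12C replicate 1 stood at 0.954 and 0.956 with the LM2 arrays, so differences from the SN12C mean depend on which parental array is used. The replicates are labelled biological, and nothing more is said of separate cultures, so a p-value here reflects only how far these arrays varied, which may be technical. The renal transcription factor PAX8 read 9.19 to 9.82 over the 5 arrays and the keratin KRT18 14.04 to 14.72, while the kidney developmental factor PAX2 stayed at 6.34 to 6.46, close to the filter value, and the epithelial adhesion molecule EPCAM lay below it on all arrays. The surface protein CD24 moved most in that identity list, with 6.67 and 7.31 in LM2 against 7.68 and 11.10 in SN12C, and the receptor MET was 0.84 higher in LM2 without overlap.

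**Figure D1:**
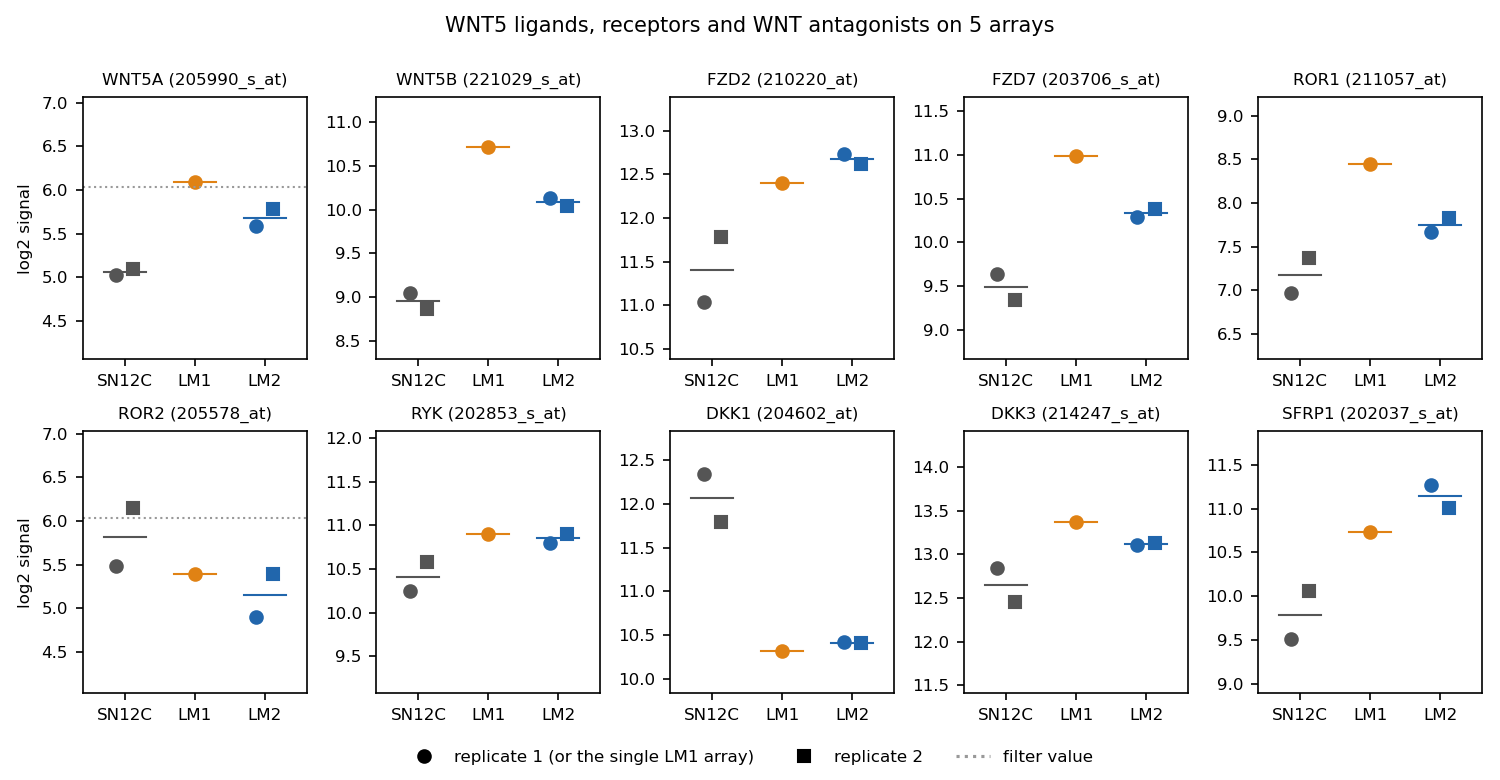
Log2 signal of the probe set with the highest mean for each of the 10 genes, by line (SN12C, LM1, LM2). Circles are replicate 1 or the single LM1 array, squares replicate 2, horizontal bars line means, and the dotted line the filter value of 6.03; every panel spans the same number of log2 units. WNT5B, FZD2, FZD7, ROR1, RYK, DKK3 and SFRP1 lie above the parent in both LM lines, and DKK1 lies below it.

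The first comparison sets LM2 against its parent SN12C. In LM2 the ligand WNT5B, the receptor FZD2 and the antagonist SFRP1 were each more than 1 log2 unit higher than in SN12C, and the antagonist DKK1 was more than 1 unit lower. FZD7, ROR1, RYK and DKK3 were higher by less than 1 unit. For these 8 genes the LM2 arrays lay wholly on the same side of the SN12C arrays. In the limma fit with Benjamini-Hochberg adjustment, 0 of the 15024 genes passed an adjusted p of 0.05, a background of 0%, and the lowest adjusted p was 0.225, so none of the 8 passed. An unadjusted p under 0.05 was reached by 1737 genes, and limma with a mean-variance trend also called 0.

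WNT5B, the ligand with the clear signal, read 9.05 and 8.87 in the SN12C arrays, 10.71 in LM1 and 10.14 and 10.04 in LM2. The LM1 value was the highest, both LM2 values came next, and the SN12C arrays were the lowest, with no overlap between lines. It averaged 10.09 ± 0.07 in LM2 and 8.96 ± 0.13 in SN12C, a difference of 1.14 ± 0.11 (SE) log2 units, or 2.20-fold, against gaps of 0.10 between the LM2 arrays and 0.18 between the SN12C arrays. Its other probe sets were also higher in LM2, by 0.75 for 223537_s_at and by 0.45 for 230299_s_at, again without overlap. All 3 carry the suffix _s_at, which Affymetrix gives to probe sets that may detect more than a single transcript.

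WNT5A, its close relative, gave signals near background. Probe set 205990_s_at read 5.03 and 5.10 in SN12C, 6.09 in LM1 and 5.58 and 5.78 in LM2, and only the LM1 value reached the filter. The order of the lines was that of WNT5B, with LM2 0.62 log2 units above SN12C. The dimmer probe set 213425_at read 4.47 and 4.67 in SN12C, 5.30 in LM1 and 4.67 in each LM2 array, where LM2 and SN12C overlapped and SN12C replicate 2 held the same value as both LM2 arrays.

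FZD2, a receptor for WNT5 ligands, read 11.04 and 11.78 in SN12C, 12.40 in LM1 and 12.73 and 12.62 in LM2. The LM2 arrays were the highest, LM1 lay between the other lines, and the SN12C arrays stood 0.74 apart. The LM2 mean of 12.67 ± 0.08 was 1.26 ± 0.30 (SE) log2 units, or 2.40-fold, above the SN12C mean of 11.41 ± 0.52, and above SN12C replicate 2 alone the difference was 0.90. A second probe set, 238129_s_at, gave 1.32 with values of 10.16 and 10.01 in LM2 against 8.38 and 9.15 in SN12C, and here LM1 at 10.45 was the highest.

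FZD7, a Frizzled receptor closely related to FZD2, read 9.65 and 9.34 in SN12C, 10.99 in LM1 and 10.30 and 10.39 in LM2. The lines stood in the same order as for WNT5B, LM1 being the highest and SN12C the lowest. The LM2 mean of 10.34 ± 0.07 exceeded the SN12C mean of 9.49 ± 0.22 by 0.85 ± 0.14 (SE) log2 units, or 1.80-fold. Its second probe set, 203705_s_at, gave 0.59 for LM2 and 0.58 for LM1 over SN12C, with LM1 at 9.88 and LM2 at 9.90 and 9.89, so that the lead of LM1 over LM2 was seen on the first probe set and not on the second.

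The co-receptors differed less. ROR1 read 6.97 and 7.37 in SN12C, 8.45 in LM1 and 7.66 and 7.83 in LM2, a difference of 0.57 ± 0.18 (SE) log2 units between LM2 (7.74 ± 0.12) and SN12C (7.17 ± 0.28), whose own arrays stood 0.39 apart. On its other probe sets LM2 and SN12C overlapped: 205805_s_at gave 7.21 and 7.18 in LM2 against 6.41 and 7.43 in SN12C, and 232060_at, mostly below the filter, gave 4.77 and 4.86 against 4.58 and 5.42. RYK read 10.25 and 10.58 in SN12C, 10.90 in LM1 and 10.80 and 10.90 in LM2, a difference of 0.44 ± 0.15 (SE) between LM2 (10.85 ± 0.08) and SN12C (10.41 ± 0.24). The other RYK probe sets were higher in LM2 by 0.53 and 0.74, also without overlap.

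ROR2, the second receptor of the ROR pair, gave signals near background, as WNT5A did. It read 5.48 and 6.15 in SN12C, 5.40 in LM1 and 4.90 and 5.40 in LM2, with 1 of 5 arrays at or above the filter. Both LM2 arrays lay below both SN12C arrays, by 0.67 log2 units on average, which is about the gap of 0.67 between the SN12C arrays.

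DKK1, the LRP5 and LRP6 antagonist, was the only one of the 8 genes past the filter that was lower in the LM lines. It read 12.34 and 11.79 in SN12C, 10.32 in LM1 and 10.42 and 10.41 in LM2. All LM arrays lay within a narrow band more than 1 log2 unit below either SN12C array. The LM2 mean of 10.41 ± 0.01 stood at -1.65 ± 0.23 (SE) log2 units from the SN12C mean of 12.07 ± 0.39, which is 0.318 of the SN12C signal, and of all tested genes 0.3% had a lower difference. DKK1 was read by a single probe set.

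SFRP1, the secreted Frizzled-related antagonist, had the largest positive difference of the 8 genes. It read 9.51 and 10.06 in SN12C, 10.73 in LM1 and 11.27 and 11.01 in LM2. On this probe set alone the lines were ordered by generation with no overlap. The LM2 mean of 11.14 ± 0.18 exceeded the SN12C mean of 9.78 ± 0.39 by 1.36 ± 0.25 (SE) log2 units, or 2.57-fold. Its other 3 probe sets were also higher in LM2, by 1.02, 0.65 and 0.17, and the arrays of 202035_s_at, which gave the 0.65, overlapped. On 202036_s_at and 202035_s_at LM1, at 6.61 and 5.52, lay below both SN12C arrays. On 228413_s_at LM1 at 6.630 lay just above the LM2 arrays at 6.627 and 6.607.

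DKK3 read 12.85 and 12.45 in SN12C, 13.37 in LM1 and 13.11 and 13.13 in LM2. The LM2 mean of 13.12 ± 0.02 was 0.47 ± 0.17 (SE) log2 units above the SN12C mean of 12.65 ± 0.28, little more than the 0.40 between the SN12C arrays. Of its 6 probe sets 5 were higher in LM2 and 1, 230508_at, stood at -0.03, with 10.53 and 10.61 in LM2 against 10.84 and 10.36 in SN12C. That is also the only DKK3 probe set past the filter that does not end in _s_at. Past the filter, the positive DKK3 difference therefore rests on probe sets of the _s_at type. Below the filter, 221126_at was higher in LM2 by 0.17, and 207875_at by 0.04 with overlap.

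Counted over the 8 genes past the filter, 7 were higher in LM2 without overlap, where 25.3% of all tested genes were, and 1 was lower without overlap, where 14.1% were. A difference of at least 1 log2 unit without overlap was met by 3 of the 8 on the higher side, against 1.7% of all genes, and by 1 on the lower side, against 1.23%. Since the genes were proposed with this comparison known, nothing is read from these shares. Without SN12C replicate 2 the number of all genes at least 1 unit apart was 1128 in place of 441, and without SN12C replicate 1 it was 330. Set against SN12C replicate 1 alone, WNT5B, FZD2 and SFRP1 were at least 1 unit higher in LM2, where 5.71% of all genes were. Against replicate 2 alone WNT5B and SFRP1 were, where 0.85% of all genes were, while FZD2 stood at 0.90. DKK1 was at -1.93 against replicate 1 and at -1.38 against replicate 2. Of all genes 1.8% and 1.35% were at least 1 unit lower against the same arrays. With the median over all probe sets of a gene, WNT5B stood at 0.75 and SFRP1 at 0.78, both under 1 unit, and ROR1 at 0.30. Against SN12C replicate 2 alone RYK stood at 0.27 and ROR1 at 0.38, and against replicate 1 alone DKK3 stood at 0.28.

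Among markers of fibroblasts, cells that also express WNT5 receptors and SFRP1, COL3A1 moved with LM2. The summed linear signal of the 7 fibroblast markers was 3095 to 3324 in LM2 and 1163 to 1648 in SN12C. Nearly all of that difference came from COL3A1, a fibrillar collagen chain, with 10.94 and 11.11 log2 units in LM2 against 6.98 and 8.98 in SN12C. The other 6 markers summed to 1114 to 1134 in LM2 and 1036 to 1144 in SN12C. Each marker entered the sum by its brightest probe set, which for COL1A1, another fibrillar collagen chain, read 9.01 to 9.04. The 4 other COL1A1 probe sets gave LM2 differences from -0.07 to 2.55, so COL3A1 was not the only collagen with a higher signal. Of 5 tested markers 2 were higher without overlap, COL3A1 and PDGFRA, where 25.3% of all tested genes were. PDGFRA, a growth factor receptor, was higher by 0.14, and its 3 other probe sets gave -0.15 to -0.05. The fibroblast markers LUM and FAP lay below the filter on all 5 arrays, and DCN read 6.89 to 7.34 over all of them. Summed leukocyte markers were 404 to 429 in LM2 and 429 to 432 in SN12C, lung epithelial markers 752 to 760 in LM2 and 729 to 1073 in SN12C, and endothelial markers 449 to 463 in LM2 and 541 to 658 in SN12C. The part of other cell types in the WNT values was not tested beyond these levels. In RNA of a whole culture, fewer cells of a kind and less RNA per cell cannot be told apart.

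The DNA before the start sites of DKK1 and WNT5B is shown because DKK1 was lower in LM2 on its only probe set and WNT5B was higher in LM2 on all 3 of its probe sets. Each window holds the 250 bases before a RefSeq start site (GRCh38.p14), printed 5′ to 3′ on the gene's strand. Capitals mark matches, on either strand, to CTTTGA, the core bound by the TCF/LEF factors of the beta-catenin pathway, to the AP-1 motif TGANTCA, or to the GC box GGGCGG. DKK1 lies at chr10:52314031-52314280 (+), and the WNT5B windows at chr12:1616806-1617055 (+) and chr12:1628981-1629230 (+).
DKK1: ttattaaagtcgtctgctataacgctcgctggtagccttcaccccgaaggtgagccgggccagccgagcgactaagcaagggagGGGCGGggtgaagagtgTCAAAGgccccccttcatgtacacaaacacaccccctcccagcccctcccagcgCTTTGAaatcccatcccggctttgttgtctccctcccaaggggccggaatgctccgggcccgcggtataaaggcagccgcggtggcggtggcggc
WNT5B, upstream start: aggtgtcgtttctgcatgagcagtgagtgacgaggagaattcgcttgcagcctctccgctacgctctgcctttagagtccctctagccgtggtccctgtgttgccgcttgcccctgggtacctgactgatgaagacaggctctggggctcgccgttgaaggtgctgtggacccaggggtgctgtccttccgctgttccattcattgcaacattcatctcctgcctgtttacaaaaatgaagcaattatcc
WNT5B, downstream start: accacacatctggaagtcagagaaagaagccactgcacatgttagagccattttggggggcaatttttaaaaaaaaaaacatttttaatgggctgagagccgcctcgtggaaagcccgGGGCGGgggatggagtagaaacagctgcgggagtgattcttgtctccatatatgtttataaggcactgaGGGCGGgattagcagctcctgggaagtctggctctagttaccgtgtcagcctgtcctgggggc

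The DKK1 window held 2 matches to CTTTGA, 1 on each strand, beginning 149 and 95 bases before the start, and 1 GC box. The upstream WNT5B window held none of the 3 motifs, and the downstream window held 2 GC boxes. Of 35116 windows of the same length, 11.2% held CTTTGA, 6.6% the AP-1 motif and 42.6% a GC box. No match overlapped another. A match is a description of these letters and not a binding site, and no binding was measured here. The sequence table also held windows of WNT5A, RYK, ROR1 and ROR2, in which CTTTGA and the AP-1 motif were not matched. GC boxes were matched there too, 1 for WNT5A, 2 for RYK and 4 for ROR2, but not for ROR1.

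The second comparison sets LM1 against SN12C. On the brightest probe sets the genes stood on the same sides of the parent as in LM2: WNT5B was 1.76 ± 0.13 (SE), FZD7 1.49 ± 0.17, ROR1 1.28 ± 0.22, FZD2 0.99 ± 0.37, SFRP1 0.95 ± 0.30, DKK3 0.72 ± 0.21 and RYK 0.49 ± 0.19 log2 units higher in LM1, and DKK1 stood at -1.75 ± 0.28. The spread behind these errors comes from the SN12C and LM2 pairs, LM1 being assumed to vary like them, and both comparisons share the SN12C arrays. Of all tested genes 0% passed limma (lowest adjusted p = 0.0964, with 3325 genes at an unadjusted p under 0.05), and none of the 8 did. The LM1 array lay above both SN12C arrays for 7 of the 8, where 45.2% of all genes did, and below both for 1, where 20.8% did. At least 1 log2 unit was reached by 3 of the 8 on the higher side, against 6.26% of all genes, and by 1 on the lower side, against 1.91%.

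Probe sets of the same gene disagreed in LM1. For WNT5B, LM1 stood 1.76 log2 units above SN12C on 221029_s_at and at -0.64 on 223537_s_at. For RYK it was 0.49 higher on 202853_s_at and at -0.92 and -1.40 on 214172_x_at and 216976_s_at, and for SFRP1 0.95 higher on 202037_s_at and at -1.27 and -0.86 on 202036_s_at and 202035_s_at. The DKK3 probe sets past the filter ran from -0.30 to 1.95. In LM2 no gene among the 7 members with several probe sets past the filter had them at least 0.5 log2 units on either side of SN12C, and in LM1 WNT5B and SFRP1 did.

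Over all 7195 genes with at least 2 probe sets past the filter, the range of differences from SN12C between a gene's probe sets had a median of 0.70 log2 units in LM1 and 0.27 in LM2. The share of genes with probe sets at least 0.5 units on either side of SN12C was 12.6% in LM1 and 0.18% in LM2. The wider disagreement and the larger 3′ to 5′ difference of the control transcripts were both found on the single LM1 array. The part of RNA quality in the LM1 values was not tested. The direction of WNT5B, RYK, SFRP1 and DKK3 in LM1 therefore depends on the probe set. DKK3 was higher in LM1 on 4 of its 6 probe sets and lower on 2, among them 230508_at at -0.30, below both SN12C arrays. FZD2 and FZD7 were higher in LM1 without overlap on both of their probe sets, and DKK1 was lower on its only one. ROR1 was higher on average on all 3, but on 205805_s_at LM1 at 7.21 lay between the SN12C arrays.

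**Figure D2:**
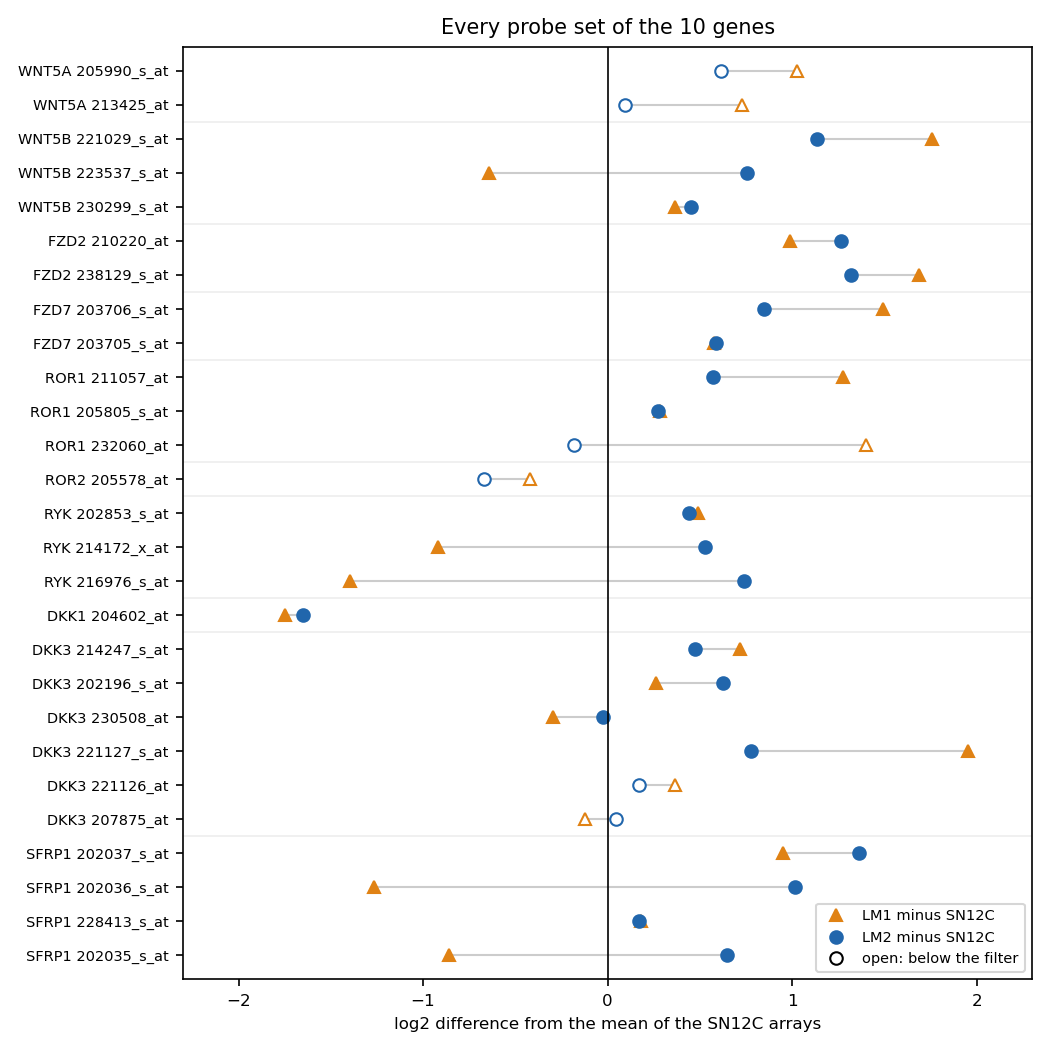
Log2 difference of LM1 (triangles) and LM2 (circles) from the mean of the SN12C arrays for each of the 27 probe sets, with open symbols for the 6 that did not pass the filter. LM2 lies above SN12C on 23 of 27 probe sets, while LM1 lies above it on 18 and below it on 9, with WNT5B, RYK, DKK3 and SFRP1 on both sides of 0.

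The third comparison sets LM2 against LM1. None of the 8 genes differed by 1 log2 unit or more on the probe set used, where 1.68% of all genes were at least that much higher in LM2 without overlap and 1.86% lower, and 0% passed limma (lowest adjusted p = 0.178, with 2555 genes at an unadjusted p under 0.05). ROR1 stood at -0.70 ± 0.22 (SE), FZD7 at -0.64 ± 0.17 and WNT5B at -0.62 ± 0.13, so these were lower in LM2 than in LM1 on that probe set, while SFRP1 was 0.41 ± 0.30 and FZD2 0.28 ± 0.37 higher. DKK3 stood at -0.25 ± 0.21, DKK1 at 0.09 ± 0.28 and RYK at -0.05 ± 0.19. Several of these values turned or changed in size with the probe set. On 223537_s_at WNT5B was 1.40 log2 units higher in LM2 than in LM1, and the other RYK probe sets gave 1.45 and 2.14. The other SFRP1 probe sets gave 2.28 (202036_s_at), 1.51 (202035_s_at) and -0.01 (228413_s_at). The DKK3 probe sets past the filter ran from -1.175 to 0.363. With the median over a gene's probe sets WNT5B stood at 1.40, RYK at 1.59, SFRP1 at 1.37 and FZD2 at -0.05.

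The rest of the WNT pathway was described through 7 lists with 115 genes, of which 91 were tested. In LM2 50 of these were higher and 40 lower than in SN12C, with a median of 0.04 log2 units against 0.03 for all genes, of which 55.8% were higher. Without overlap 24 were higher and 11 lower, beside 25.3% and 14.1% of all genes, so these counts lay near the background. None of the 91 passed limma in LM2 or in LM1. At least 1 log2 unit without overlap was reached by 2 of the 91 on the higher side and 1 on the lower side in LM2. Of all genes 1.7% and 1.23% reached it, so these counts also lay near the background. The median of the 8 genes past the filter, 0.71, is not comparable support, since those genes were chosen with the values known.

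Among other receptors, FZD6, a Frizzled receptor, read 5.69 and 6.71 in SN12C, 6.96 in LM1 and 8.12 and 8.47 in LM2. It was 2.10 ± 0.42 (SE) log2 units higher in LM2, beside 1.26 for FZD2 and 0.85 for FZD7, with SN12C replicate 1 below the filter, so that the size is uncertain. ZNRF3, a ubiquitin ligase that removes Frizzled receptors from the cell surface, was 0.71 ± 0.44 higher, FZD1 0.48 ± 0.42 higher with overlap, and FZD3 stood at -0.48 ± 0.17. The list of 16 tested receptors and co-receptors had a median of -0.02, with 7 higher and 9 lower.

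The other WNT ligands were nearly level. Of 12 tested, 5 were higher and 7 lower in LM2, with a median of -0.02, and the largest differences were WNT6 at -0.30 ± 0.47, WNT1 at -0.25 ± 0.27, WNT7B at 0.24 ± 0.08 and WNT10B at -0.17 ± 0.10 (SE). WLS, which carries WNT ligands to the cell surface, was 0.39 ± 0.27 higher, GPC6, a glypican, stood at -0.10 ± 0.10 and NOTUM, a secreted enzyme that inactivates WNT ligands, at -0.02 ± 0.07. Of the other antagonists 8 of 13 lay below the filter on every array, among them DKK2, SFRP2, FRZB and WIF1. Of the 5 tested, IGFBP4, a secreted binding protein of insulin-like growth factors that also inhibits WNT signalling, had the largest difference. It read 11.86 and 11.20 in LM2 against 10.66 and 10.79 in SN12C and 12.41 in LM1. CER1 stood at -0.12 ± 0.22, SFRP4 at -0.10 ± 0.09 and DKK4 at 0.04 ± 0.08.

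Components and targets of the beta-catenin pathway showed no common direction. Among 20 components 10 were higher and 10 lower in LM2, with a median of 0.02. CTNNB1, beta-catenin itself, read 10.01 and 9.90 in LM2 against 10.54 and 10.05 in SN12C, and its other probe sets gave -0.74 and 0.51. PYGO1, a nuclear co-factor of beta-catenin, was 0.71 ± 0.37 higher, BCL9L, another, stood at -0.45 ± 0.36 and DVL1, a cytoplasmic relay protein, at -0.41 ± 0.13. Of 13 tested target genes 7 were higher and 6 lower, with a median of 0.04. BAMBI, a decoy receptor of the TGF-beta family that beta-catenin can induce, read 8.14 and 7.97 in LM2 against 6.22 and 7.41 in SN12C, a difference of 1.24 ± 0.47, and stood 2.19 above SN12C in LM1. ZNRF3, described above, is also a target. PPARD stood at -0.30 ± 0.08 and LGR5 at -0.29 ± 0.35.

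In the planar polarity and calcium branch, through which WNT5 ligands signal, 20 of 27 tested genes were higher in LM2 and 7 lower, with a median of 0.13 log2 units, where 55.8% of all tested genes were higher. Without overlap 12 were higher and 2 lower, beside 25.3% and 14.1% of all genes. CAMK2D, a calcium-dependent kinase, was the largest difference of that list and lay on the other side, at -1.32 ± 0.40, with 8.68 and 9.02 in LM2 against 10.65 and 9.70 in SN12C. NFATC1 and NFATC3, calcium-regulated transcription factors, were 0.76 ± 0.11 and 0.74 ± 0.34 higher, and MAPK9, a JNK kinase, 0.63 ± 0.38 higher. The other NFATC1 probe sets ranged from -0.18 to 0.38.

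**Figure D3:**
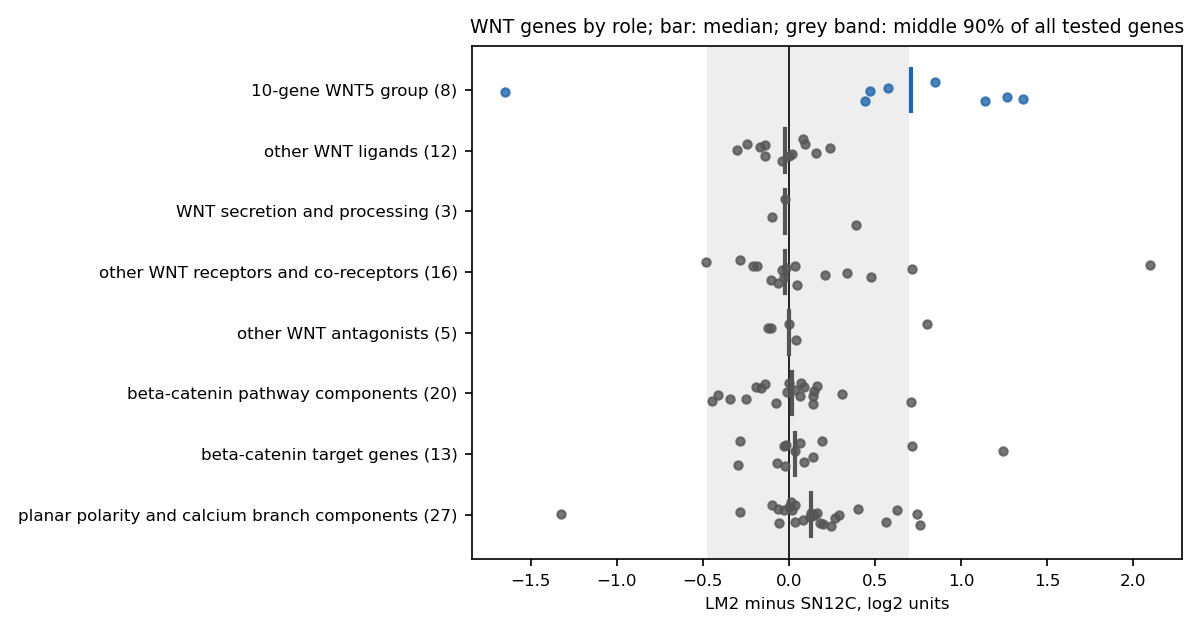
LM2 minus SN12C difference in log2 units for the 8 genes past the filter and for the tested genes of 7 WNT lists, with the number of genes in brackets. Points are genes, bars list medians, and the grey band runs from the 5th to the 95th percentile of all tested genes (-0.47 to 0.69). WNT5B, FZD2, FZD7 and SFRP1 lie above the band and DKK1, at -1.65, below it, while RYK, DKK3 and ROR1 lie within it, at 0.44, 0.47 and 0.57. Most points of the other lists lie in the band. The 8 genes were chosen with earlier results of these arrays known.

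Across the 5 arrays, genes with the pattern closest to a member were found by the root mean square distance between values centred on each gene's own mean. For WNT5B these were LOXL4, a lysyl oxidase, and OXTR, the oxytocin receptor, at 0.08 log2 units each (Pearson r = 0.996 and 0.997 over 5 arrays), then RNF144A at 0.10. For FZD7 LPAR1, a lysophosphatidic acid receptor, lay at 0.04 and the calcium-binding protein S100A2 at 0.07. For SFRP1 the nearest was NOS3 at 0.07, and AP1S2 was among the nearest 3 of both SFRP1 and FZD2. Among the nearest genes to DKK1, PRKCE, a protein kinase C, lay at 0.14 and PHLDA1 at 0.15. Only 5 genes lay within 0.2 log2 units of DKK1, against 38 for WNT5B, 77 for FZD2 and 749 for ROR1, so the pattern of ROR1 was a common one. With 5 arrays such closeness is a description of these arrays, and the LM1 array enters each distance.

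Neighbouring genes on the chromosome all stood nearer to 0 than DKK1, WNT5B, FZD7, FZD2, SFRP1 and ROR1 did, but not all nearer than RYK and DKK3. The 10 nearest tested genes around DKK1 on chromosome 10 had a median LM2 difference of 0.00 and ranged from -0.42 to 0.96, against -1.65 for DKK1. Around WNT5B on chromosome 12 the median was 0.02 and the highest neighbour 0.17, against 1.14. Around FZD7 on chromosome 2 the median was -0.18 and the lowest neighbour -0.83, against 0.85. Around FZD2 on chromosome 17 the median was 0.17, against 1.26. For DKK3 on chromosome 11 the neighbours had a median of 0.43, close to its own 0.47. The medians around ROR1, RYK and SFRP1 were -0.06, 0.13 and 0.19. The highest neighbour stood at 0.97 for RYK and for DKK3.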

How the data were processed

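Total RNA of 3 cell lines was labelled with biotin and hybridised to 5 Affymetrix arrays, per the labels. The values deposited by the authors are log2 signals, 1 for each probe set on each array, made with RMA and Partek, per the submitters' processing notes (versions not stated there). RMA subtracts background, equalizes the distributions of the arrays and combines the probes of a set, which removes differences in total signal between arrays. Array medians lay between 6.51 and 6.57.

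Here 62 control probe sets were left out. The platform table named 41097 probe sets with 1 gene, 1801 with several (not used) and 11777 with none. Each gene was read by its probe set of highest mean. One mean per line was fitted to 15024 genes with limma 3.58.1 (lmFit, eBayes) in R 4.3.3, Benjamini-Hochberg adjustment at 0.05, with 2 residual and 1.3 prior degrees of freedom. The smallest two-sided p of an exact permutation test with 2 arrays a group is 0.333. Values were tied between replicates for 714 genes in SN12C and 2129 in LM2, which shrinks their estimated spread. The fit was also run on simulated data with added differences. That run checked that the code returns them, and not the error rates on these arrays. Neighbours were the 5 tested genes on each side by the order of GRCh38.p14. Figures were drawn with matplotlib 3.10.9.

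The members and lists were chosen with earlier results of these data known. Named genes were all members, up to 4 genes per WNT list with the largest LM2 difference, and the 3 nearest patterns of members spanning at least 1 log2 unit, of which some are left out. Single cell type markers were chosen for the text after their values were seen. Alternatives covered the filter, probe set rule, normalization, eBayes options, which arrays were fitted, leaving out each replicate, and a replicate block. SN12C and LM2 share replicate numbers, but deviations of same-numbered arrays correlated at only 0.09 across genes, so the block was kept as an alternative.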

Additional observations from a re-analysis of the deposited data

Results flagged for a closer look

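On 4 probe sets the LM1 array lay below both SN12C arrays while both LM2 arrays lay above them. The LM1 differences were -0.64 log2 units for WNT5B (223537_s_at), -0.92 and -1.40 for RYK (214172_x_at and 216976_s_at) and -1.27 for SFRP1 (202036_s_at). The LM2 differences on the same probe sets were 0.75, 0.53, 0.74 and 1.02. The difference between the lines was not tested, and LM1 is a single array.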

How the results depend on the processing

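With the median over a gene's probe sets, WNT5B in LM1 stood at -0.64 log2 units in place of 1.76, RYK at -0.97 and SFRP1 at -0.59, and the LM2 against LM1 count of genes at least 1 unit apart was 903 in place of 532. With every probe set as a row, probe sets and not genes are counted, and the counts at least 1 unit apart were 1037 for LM2 against SN12C, 4101 for LM1 against SN12C and 3236 for LM2 against LM1, against 441, 1228 and 532 genes. With only the arrays of LM2 and LM1, limma called 1273 genes in place of 0, the spread then coming from the LM2 pair alone. Leaving out each replicate gave 0 to 3824 limma calls for LM2 against SN12C, 0 to 4823 for LM1 against SN12C and 0 to 1273 for LM2 against LM1, and counts at least 1 unit apart of 330 to 1128, 997 to 2065 and 532 to 585. The calls arose in fits without an SN12C array, whose spread comes from the LM2 pair alone. With a replicate block the counts were 0 and 441 for LM2 against SN12C, and it changed no other call. In LM2 against SN12C the sign of a member difference changed in 1 of 108 values recomputed, DKK3 at -0.03 without _x_at and _s_at probe sets. It changed in 4 of 108 for LM1 against SN12C, the 3 above and DKK3 at -0.30, and in 5 of 108 for LM2 against LM1, WNT5B at 1.40, FZD2 at -0.05 and RYK at 1.59 with the median over probe sets, DKK3 at 0.27 without _x_at and _s_at probe sets and RYK at 0.003 without LM2 replicate 1. Many of these recomputed values could not change. The filter, the eBayes options, the block and fitting only the lines compared leave a difference of means as it is. So does leaving out an array of a line that is not compared. WNT5B, FZD7, RYK and SFRP1 had no value without _x_at and _s_at probe sets. In LM2 against SN12C, apart from the median over probe sets, WNT5B ranged from 0.97 to 1.23 and FZD2 from 0.90 to 1.63. SFRP1 ranged from 1.09 to 1.64 and DKK1 from -1.93 to -1.38. Leaving out an SN12C array brought RYK to 0.27, ROR1 to 0.38 and DKK3 to 0.28, from 0.44, 0.57 and 0.47. Precision is limited by the 5 arrays, and values below 6.03 are near background.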
